A study of Homo sapiens with 32 samples.

Results

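Eph receptors are the largest family of receptor tyrosine kinases, and ephrins are their ligands, which stay bound to the surface of the neighbouring cell. The genes described here are 6 Eph receptors (EPHA2, EPHA4, EPHA7, EPHB2, EPHB3 and EPHB4) and 4 ephrins (EFNA1, EFNA4, EFNB1 and EFNB2), chosen by gene name among the 57773 genes of both count tables. All 10 were found and all 10 passed the filter on low counts after 6 h and after 24 h. RNA was measured in HEK293 cells, an established human embryonic kidney line, and every group had been transiently transfected with AT1R (AGTR1), the angiotensin II receptor. The cells were kept without serum and then left without stimulus (control) or given AngII (1 nM), EGF (10 µg/l) or EGF+AngII for 6 h or 24 h. Each condition had 4 libraries after 6 h, and after 24 h there were 4 of control, AngII and EGF and 3 of EGF+AngII. Transient transfection leaves a part of the cells without the receptor, and in bulk RNA a change in fewer cells and a smaller change in every cell cannot be told apart.

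Eph receptors and ephrins signal at cell contacts in both directions, forward into the cell that carries the receptor and in reverse into the cell that carries the ephrin. Class A ephrins are held in the membrane by a lipid anchor and prefer EphA receptors, whereas class B ephrins cross the membrane and prefer EphB receptors; EphA4 binds both classes. The pair steers cell repulsion, boundary formation and axon guidance, and it shapes epithelia and vessels. EPHA2 is best known from epithelia and tumours, where EFNA1 is its usual ligand, and it is known as a gene that growth factor signalling through MAP kinases can raise.

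After 6 h EGF raised EPHA2 by a factor of 2.00, and EGF+AngII raised EPHA2 by a factor of 2.49 and EPHB2 by a factor of 1.57. EPHA4 was lower by a factor of 1.44 with EGF and of 1.31 with EGF+AngII, and EPHA7 was lower by a factor of 1.33 with EGF+AngII, which passed the FDR of 0.05 but not the fold threshold of 1.5. The 4 ephrins, EPHB3 and EPHB4 did not pass the test in any condition. None of the 10 genes passed with AngII alone, and after 24 h none of them passed the test in any condition.

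These changes fell on 2 receptors in each direction, so the bases before the start sites of EPHA2, EPHB2, EPHA4 and EPHA7 are shown here for comparison between them. They are the 250 bases upstream of a RefSeq start on GRCh38.p14, written 5′ to 3′ on the strand of the gene. RefSeq lists 1 start for EPHA2, 2 for EPHB2 and EPHA4 and 3 for EPHA7. The start nearest that of the canonical transcript was taken for the 10 genes and the first listed for all others. Further starts were not searched. EPHA2 is on the minus strand (chr1:16156070-16156319), EPHB2 on the plus strand (chr1:22710589-22710838), EPHA4 on the minus strand (chr2:221572305-221572554) and EPHA7 on the minus strand (chr6:93419560-93419809). Capitals mark a match to the EGR motif.
EPHA2: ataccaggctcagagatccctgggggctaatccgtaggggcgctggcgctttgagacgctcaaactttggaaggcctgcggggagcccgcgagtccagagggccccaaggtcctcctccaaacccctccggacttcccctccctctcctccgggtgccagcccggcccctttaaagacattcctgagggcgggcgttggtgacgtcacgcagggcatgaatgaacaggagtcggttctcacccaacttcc
EPHB2: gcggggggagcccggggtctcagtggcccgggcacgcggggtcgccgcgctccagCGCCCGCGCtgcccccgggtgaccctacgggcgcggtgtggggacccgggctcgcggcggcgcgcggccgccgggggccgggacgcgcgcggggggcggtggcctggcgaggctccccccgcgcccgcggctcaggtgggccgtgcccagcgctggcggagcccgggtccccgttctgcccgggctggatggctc
EPHA4: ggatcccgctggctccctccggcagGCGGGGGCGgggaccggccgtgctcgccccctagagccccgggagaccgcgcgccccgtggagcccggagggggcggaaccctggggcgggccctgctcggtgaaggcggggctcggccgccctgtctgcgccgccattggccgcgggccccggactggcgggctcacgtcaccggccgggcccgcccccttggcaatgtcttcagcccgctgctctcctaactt
EPHA7: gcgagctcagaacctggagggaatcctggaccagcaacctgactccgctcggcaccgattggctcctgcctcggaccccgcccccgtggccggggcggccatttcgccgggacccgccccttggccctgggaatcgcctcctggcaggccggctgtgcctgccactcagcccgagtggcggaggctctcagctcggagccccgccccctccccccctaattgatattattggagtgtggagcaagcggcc
Matches were searched on both strands in windows reaching from 250 bases before to 50 bases after the start, which were found for all 10 genes. The EGR motif GCGNGGGCG occurs in 9.28% of 27303 promoters and in 3 of the 10 genes. In EPHA4 it lies at -225 to -217 on the strand of the gene, in EPHB2 at -195 to -187 on the opposite strand and in EFNA1 at -65 to -57. Apart from N the motif holds only G and C. These bases make up 78% of the 250 upstream bases in EPHA4, 84.8% in EPHB2 and 73.2% in EFNA1. In the other members they make up 58.4% to 78.4%. Promoters of like base composition were not compared. The letters of the AP-1 motif TGANTCA (7.76% of promoters), the ETS motif CCGGAAG (10.7%), the E-box CACGTG (7.44%) and the CArG box (1.29%), the site of SRF, were in none of the 10 windows. A match is only a description of the letters, and of the 4 genes that differed after EGF+AngII, EPHA2 and EPHA7 had none of these motifs in their windows. Of the 3 genes with the EGR motif, EPHB2 was higher and EPHA4 lower with EGF+AngII after 6 h, and EFNA1 did not pass the test. EGR1, the gene of an EGR factor, was higher with EGF after 6 h (log2 fold change 4.48 ± 0.17, SE, adjusted p = 2.37e-14 in edgeR's quasi-likelihood test). The part of EGR1 in the values of the 10 genes was not tested. EGFR, the receptor of EGF, was higher by 0.35 ± 0.10 (SE, log2, adjusted p = 0.0319) with EGF.

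Libraries held 3881841 to 8540815 counts after 6 h and 6646227 to 33070903 after 24 h, but protein-coding genes made up 81.4% to 84.7% of these at 6 h and only 20.8% to 63.4% at 24 h. The biological coefficient of variation was 10.6% after 6 h and 29.1% after 24 h. AGTR1 was found at 950 to 1568 FPM after 6 h and 369 to 685 FPM after 24 h, where FPM are the counts of a gene scaled to the TMM-corrected library total. Of 7 genes typical of HEK293 cells, 6 had a mean above 1 FPM in every condition at both time points, and of 11 markers of blood, endothelium, fibroblasts and adult kidney tubule only COL1A1 did in any condition. The 10 genes held 0 to 882 counts in a library after 6 h, with the fewest for EFNA4. Nothing in the labels says that libraries of a condition came from separate cultures, and p-values measure the spread between these libraries only.

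Per length, EPHB4, the receptor paired with EFNB2 in the separation of arteries from veins, was the highest of the 10 genes in control cells after 6 h, at 16.1 ± 2.68 FPM per kb of exon (SD, n = 4). EFNB2 followed at 13.3 ± 1.21 FPM per kb, and the ranges of these libraries overlapped. EPHA7 (7.75 ± 0.61) and EFNB1 (6.74 ± 0.90) came next and overlapped as well, and EPHA4 lay at 5.51 ± 0.49 FPM per kb, apart from its neighbours. EFNA1 (3.27 ± 0.94) and EPHA2 (2.74 ± 0.65) overlapped, and so did each neighbouring pair among EPHB2 (1.46 ± 0.18), EPHB3 (1.21 ± 0.17) and EFNA4 (1.09 ± 0.37). EFNB2 shares 1822 of its 5005 exon bases with a gene on the opposite strand that is not among the counted genes. The strand setting of the counting is not stated, so reads of that gene may be in the level of EFNB2. The order depends on the length used for EPHA7, whose annotated exons add up to 16460 bases and whose canonical transcript has 6621 bases. With canonical lengths, an alternative added after seeing the data, EPHA7 stood second at 19.3 FPM per kb behind EPHB4 at 23.9. With EGF+AngII, EPHA2 moved from place 7 to place 4 of the 10, at 6.78 ± 0.42 FPM per kb, above EPHA7 (5.81 ± 0.21) and EPHA4 (4.25 ± 0.37) without overlap. With canonical lengths EPHA2 stood at place 5, below EPHA7.

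**Figure D1:**
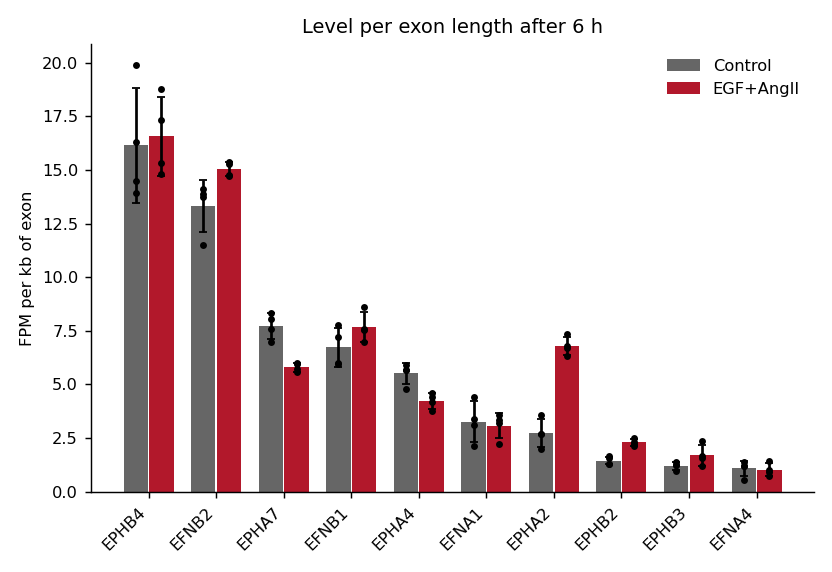
Level of the 10 genes in FPM per kb of annotated exon after 6 h in control (grey) and EGF+AngII (red) libraries. Bars are means of 4 libraries, error bars SD and points libraries, and the bar of EPHA2 rises from 2.74 to 6.78.

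EPHA2 (ENSG00000142627, chr1:16450832-16482564 on the minus strand of GRCh37) is the receptor of EFNA1. It was at 14.8, 11.2, 8.24 and 11.2 FPM in control replicates 1 to 4 after 6 h and at 8.94, 12.3, 11.8 and 9.97 FPM with AngII. With EGF it was at 24.0, 21.7, 26.0 and 18.9 FPM, and with EGF+AngII at 30.4, 26.2, 27.7 and 28.1 FPM. Every EGF and EGF+AngII library stood above every control and AngII library, whereas control and AngII libraries were mixed. The log2 fold change was 1.00 ± 0.15 (SE, adjusted p = 0.000164 in edgeR's quasi-likelihood test, as are all adjusted p-values here) with EGF. It was 1.32 ± 0.15 (adjusted p = 2.89e-06) with EGF+AngII and -0.05 ± 0.17 (adjusted p = 0.991) with AngII. The first and second series of library numbers, a split that no label calls a batch, gave 0.81 and 1.21 for EGF and 1.12 and 1.52 for EGF+AngII.

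EPHB2 (ENSG00000133216, chr1:23037332-23247993 on the plus strand) is a receptor of class B ephrins known from the sorting of intestinal epithelial cells and from synapses. It was at 16.2, 19.8, 20.7 and 16.4 FPM in control cells and at 17.7, 15.04, 17.5 and 16.8 FPM with AngII. With EGF it was at 24.6, 22.1, 22.6 and 23.8 FPM, and with EGF+AngII at 26.6, 28.0, 31.5 and 29.0 FPM. No EGF library overlapped with control, and EGF+AngII libraries all stood above the EGF libraries. EGF+AngII raised EPHB2 by 0.65 ± 0.11 (log2, SE, adjusted p = 0.000371), with 0.60 and 0.71 in the library series. With EGF the difference was 0.35 ± 0.11 (adjusted p = 0.0616), which missed the threshold, and it passed without control replicate 3 (adjusted p = 0.0400) and with protein-coding genes and the library series as a block (adjusted p = 0.0452). In the other alternatives it missed the threshold, with an adjusted p of up to 0.168. With AngII the difference was -0.13 ± 0.12 (adjusted p = 0.987).

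EPHA4 (ENSG00000116106, chr2:222282747-222438922 on the minus strand) is the receptor that binds ephrins of both classes. It was at 36.3, 42.7, 42.9 and 44.7 FPM in control cells and at 42.8, 42.6, 37.5 and 47.2 FPM with AngII. With EGF it was at 30.1, 25.3, 30.8 and 30.1 FPM, and with EGF+AngII at 33.4, 34.9, 28.4 and 31.6 FPM. All libraries that received EGF stood below all libraries that did not. The log2 fold change with EGF was -0.52 ± 0.10 (SE, adjusted p = 0.00190), past the FDR but smaller than the fold threshold of 1.5. With EGF+AngII it was -0.39 ± 0.10 (adjusted p = 0.0200), and in the library series it was -0.21 and -0.55. This value passed the FDR in all libraries but not without control replicate 2, 3 or 4 or without EGF+AngII replicate 3 or 4, when the adjusted p was 0.0534 to 0.0964. An antisense gene shares 353 exon bases with EPHA4, but it held at most 6 counts in a library after 6 h.

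EPHA7 (ENSG00000135333, chr6:93949738-94129405 on the minus strand) is a receptor known from the developing nervous system. It was at 125, 137, 133 and 115 FPM in control cells and at 128, 129, 128 and 134 FPM with AngII. With EGF it was at 113, 114, 107 and 103 FPM, and with EGF+AngII at 91.5, 98.1, 98.8 and 94.3 FPM. The EGF+AngII libraries were lower than all others, and the EGF libraries stood between them and the controls without overlap. The log2 fold change was -0.41 ± 0.07 (SE, adjusted p = 0.000472) with EGF+AngII, with -0.47 and -0.36 in the library series, and again smaller than 1.5-fold. With EGF it was -0.22 ± 0.07 (adjusted p = 0.0552), which missed the FDR, and it passed without control replicate 4 (adjusted p = 0.0344), with DESeq2 (adjusted p = 0.0240) and with a block for the library series (adjusted p = 0.0427). It also passed with protein-coding genes only (adjusted p = 0.0310) and with these and the block (adjusted p = 0.0226). In the other alternatives it missed the FDR, with an adjusted p of up to 0.288, and of up to 0.182 with a library left out.

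**Figure D2:**
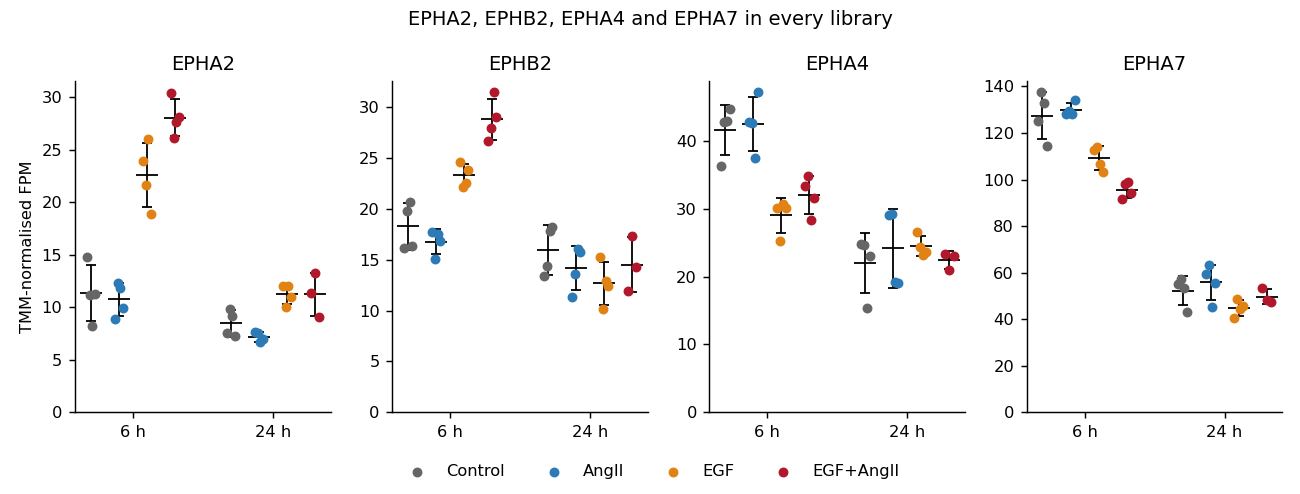
FPM of EPHA2, EPHB2, EPHA4 and EPHA7 in every library after 6 h and 24 h, with the mean and SD of each condition. After 6 h the EGF and EGF+AngII libraries of EPHA2 (18.9 to 30.4 FPM) lie above all control libraries (8.24 to 14.8 FPM), and those of EPHA4 lie below its controls. After 24 h none of these genes passed the test, and levels are not compared between the time points.

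The remaining receptors did not pass the test after 6 h. EPHB3, a receptor close to EPHB2, was at 6.24, 5.58, 4.41 and 5.62 FPM in control cells, at 4.79, 6.43, 4.73 and 3.27 FPM with EGF and at 7.51, 5.45, 7.18 and 10.8 FPM with EGF+AngII. The groups overlapped, and the highest value was that of EGF+AngII replicate 4. The log2 fold change of EPHB3 was -0.19 ± 0.24 (adjusted p = 0.712) with EGF and 0.51 ± 0.23 (adjusted p = 0.212) with EGF+AngII. EPHB4 ranged from 89.6 to 128 FPM in control cells and from 77.3 to 107 FPM with EGF, with a log2 fold change of -0.19 ± 0.11 (adjusted p = 0.362). EPHB4 shares 69 exon bases with SLC12A9 on the opposite strand, and since the strand setting of the counting is not stated, reads of the 2 genes cannot be told apart there.

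Among the ligands, EFNB2 was closest to the threshold, at 57.6, 69.5, 70.5 and 68.6 FPM in control cells and at 73.6, 76.5, 73.9 and 76.8 FPM with EGF+AngII. These groups did not overlap, but the log2 fold change of 0.17 ± 0.08 had an adjusted p of 0.242, and with EGF it was 0.18 ± 0.08 (adjusted p = 0.192). Reads of the opposite-strand gene that shares exon bases with EFNB2 may be in these values too. EFNB1, the X-linked class B ephrin, differed by 0.003 ± 0.114 with EGF (log2, SE, adjusted p = 0.994) and by 0.19 ± 0.11 (adjusted p = 0.387) with EGF+AngII. EFNA1, the usual ligand of EPHA2, was at 4.63, 7.34, 9.58 and 6.78 FPM in control cells and at 5.65, 5.23, 4.10 and 7.28 FPM with EGF. The groups overlapped, and the log2 fold change was -0.34 ± 0.22 (adjusted p = 0.400) with EGF and -0.09 ± 0.22 (adjusted p = 0.882) with EGF+AngII. EFNA4 had 0 to 22 counts in a library, and its intervals were the widest, from -1.33 to 1.18 with EGF. EFNA4 had 3, 11, 8 and 9 counts in control cells, 8, 9, 0 and 20 counts with EGF and 22, 5, 3 and 4 counts with AngII, so that libraries of a condition differed widely, and the 0 counts in EGF replicate 3 allow up to 0.473 FPM.

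In counts over the whole table, 1 of the 10 genes (EPHA2) was called with EGF after 6 h, where 1.73% of 18618 genes tested were called at an FDR below 0.05, over 1.5-fold and with over 5 FPM on average. With EGF+AngII 2 of 10 were called (EPHA2 and EPHB2) beside 1.95% of all genes, and against AngII the same pair beside 1.87%. With the FDR alone it was 2 of 10 with EGF (5.97% of all genes) and 4 of 10 with EGF+AngII (6.1% of all genes). The libraries did not overlap with control in 4 of 10 genes with EGF (12% of all genes) and in 5 of 10 with EGF+AngII (12.1% of all genes). The 10 genes were chosen with earlier results of these data known. For this reason, and with counts this small, the shares are a description. The median log2 fold change of the 10 genes was -0.13 with EGF and 0.11 with EGF+AngII, beside -0.01 and -0.01 for all genes tested.

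**Figure D3:**
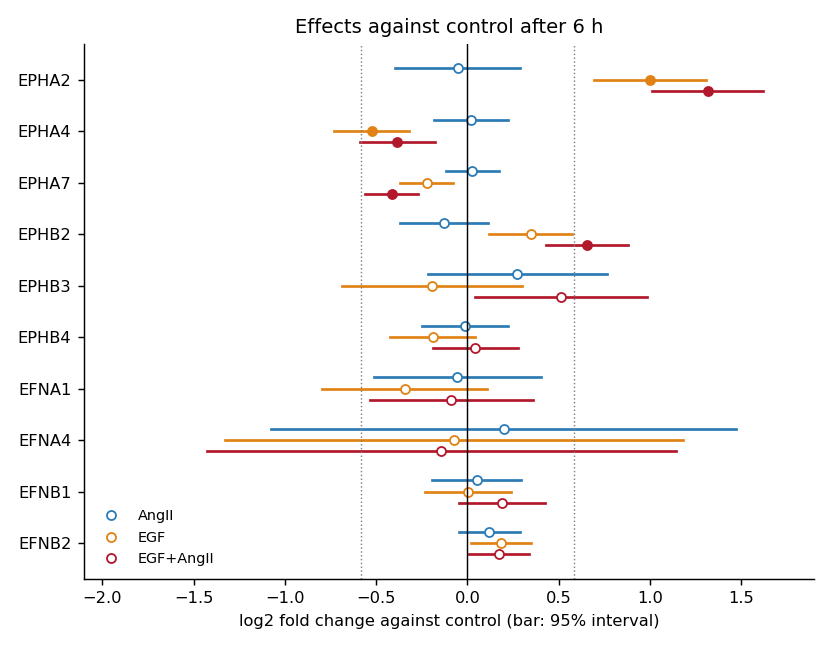
Log2 fold change against control after 6 h of the 10 genes with AngII (blue), EGF (orange) and EGF+AngII (red). Bars are 95% intervals, filled points passed an FDR of 0.05 and dotted lines mark a fold change of 1.5; filled points are found for EPHA2, EPHA4, EPHA7 and EPHB2 only, and none is blue.

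Whether AngII added to EGF was asked by the comparison of EGF+AngII with EGF, in which 0 of 10 genes and 0% of all genes were called (edgeR; 1352 of 18618 genes had an unadjusted p under 0.05). The libraries did not overlap in EPHA2, EPHB2 and EPHA7, 3 of 10 genes beside 5.59% of all genes. EPHA2 was higher with EGF+AngII by 0.32 ± 0.13 (log2, SE, 95% interval 0.04 to 0.59, adjusted p = 0.677) and EPHB2 by 0.31 ± 0.10 (0.10 to 0.52, adjusted p = 0.677). EPHA7 was lower, at -0.19 ± 0.07 (-0.33 to -0.05, adjusted p = 0.677), and EPHB3 gave 0.71 ± 0.22 (0.24 to 1.17, adjusted p = 0.677), with 0.21 in the first and 1.17 in the second library series. The interaction, the EGF+AngII effect minus the sum of both single effects, was 0.37 ± 0.21 (log2, SE, 95% interval -0.07 to 0.81, adjusted p = 0.664) for EPHA2 and 0.44 ± 0.16 (0.12 to 0.76, adjusted p = 0.592) for EPHB2. It passed for 0 of the 10 genes and 0% of all genes in edgeR, with 1491 genes at an unadjusted p under 0.05. AGTR1 was also higher with EGF+AngII than in control (log2 fold change 0.45 ± 0.08, adjusted p = 0.000498 in edgeR). Its mean was 1096 FPM in control, 1388 FPM with AngII, 1097 FPM with EGF and 1497 FPM with EGF+AngII. The sum of the HEK293 markers was 1428 to 1599 FPM with EGF+AngII, 1261 to 1441 FPM with EGF and 1178 to 1308 FPM in control. Largest in this sum were NEFM (358 to 811 FPM over all libraries), NEFL (395 to 602 FPM) and VIM (261 to 322 FPM). The part of AGTR1 and of these markers in the results of the 10 genes was not tested.

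With AngII alone 0 of 10 genes and 0% of all genes were called after 6 h (edgeR; 845 of 18618 had an unadjusted p under 0.05). The log2 fold changes of the 10 genes lay between -0.13 (EPHB2) and 0.27 (EPHB3). Against AngII, EGF+AngII raised EPHA2 by 1.37 ± 0.15 (log2, SE, adjusted p = 1.74e-06) and EPHB2 by 0.78 ± 0.11 (adjusted p = 5.94e-05), while EPHA4 (-0.40 ± 0.10, adjusted p = 0.0149) and EPHA7 (-0.44 ± 0.07, adjusted p = 0.000268) were lower by less than 1.5-fold. This comparison and the one with control share the EGF+AngII libraries.

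After 24 h none of the 10 genes was called with EGF, beside 0.0316% of 22174 genes tested, or with EGF+AngII, beside 0.0271%. With AngII it was 0 of 10 beside 0% (edgeR; 552 of 22174 genes had an unadjusted p under 0.05). EPHA2 was at 7.52, 9.89, 9.19 and 7.30 FPM in control cells, at 12.01, 10.1, 12.03 and 11.03 FPM with EGF, at 7.64, 7.52, 6.69 and 6.94 FPM with AngII and at 11.4, 13.2 and 9.11 FPM in EGF+AngII replicates 1, 3 and 4. All EGF libraries were above all controls, and EGF+AngII replicate 4 lay among the controls. The log2 fold change of EPHA2 was 0.41 ± 0.18 (SE, 95% interval 0.04 to 0.78, adjusted p = 0.530) with EGF and 0.40 ± 0.19 (0.00 to 0.79, adjusted p = 0.924) with EGF+AngII. EPHB2 was at 13.3, 14.4, 17.8 and 18.2 FPM in control cells, at 15.2, 10.1, 12.9 and 12.4 FPM with EGF and at 11.9, 17.3 and 14.3 FPM with EGF+AngII, so that the groups overlapped. Its log2 fold change was -0.34 ± 0.18 (adjusted p = 0.636) and -0.15 ± 0.19 (adjusted p = 0.999). EPHA4 (0.15 ± 0.17, adjusted p = 0.870) and EPHA7 (-0.22 ± 0.12, adjusted p = 0.669) did not pass with EGF either. EPHB3 gave -1.69 in the first and 0.44 in the second library series with EGF. The summed HEK293 markers were 3285 to 4354 FPM with EGF and 1852 to 2074 FPM in control after 24 h. Most of this sum was NEFM, at 1204 to 3593 FPM over all libraries, where NEFL was at 342 to 556 FPM and VIM at 154 to 228 FPM. The part of these markers in the values of the 10 genes was not tested.

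**Figure D4:**
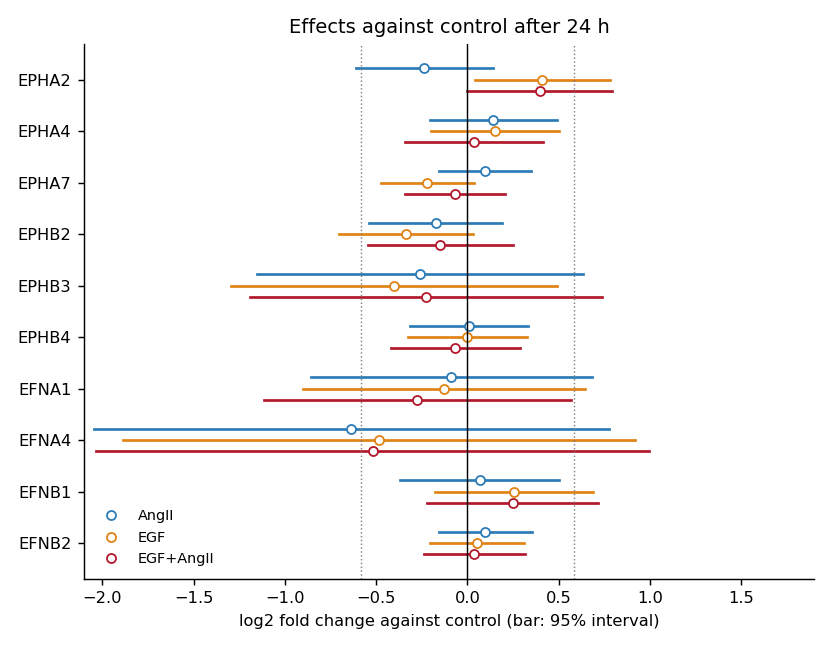
Log2 fold change against control after 24 h of the 10 genes with AngII (blue), EGF (orange) and EGF+AngII (red), on the same axis as after 6 h. Bars are 95% intervals and no point is filled, since no gene passed an FDR of 0.05; the intervals of EPHA2 with EGF reach from 0.04 to 0.78.

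A joint fit of both tables (21932 genes) tested how effects changed from 6 h to 24 h. The EGF effect at 24 h minus that at 6 h was called for 0 of 10 genes, beside 0.164% of all genes, and that of EGF+AngII for 0 of 10, beside 0.123%. With EGF+AngII the difference was -0.94 ± 0.23 (log2, SE, adjusted p = 0.119) for EPHA2 and -0.83 ± 0.21 (adjusted p = 0.133) for EPHB2. Both passed with DESeq2 (adjusted p = 0.0266 and 0.0498), and EPHB2 passed with the library series as a block (adjusted p = 0.0295). With EGF it was -0.59 ± 0.22 (adjusted p = 0.329) for EPHA2, -0.69 ± 0.20 (adjusted p = 0.185) for EPHB2 and 0.67 ± 0.20 (adjusted p = 0.187) for EPHA4. Levels at 6 h and 24 h come from tables with different shares of non-coding RNA, and they are not compared here.

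Of the 12 remaining Eph and ephrin genes of the tables, 8 were tested after 6 h and 9 after 24 h. EPHA8, a receptor for class A ephrins, was the only one called, with EGF+AngII after 6 h (1 of 8, beside 1.95% of all genes). EPHA8 was at 11.3, 12.1, 12.1 and 10.8 FPM in control cells and at 14.5, 17.6, 20.6 and 18.0 FPM with EGF+AngII after 6 h, without overlap. Its log2 fold change was 0.62 ± 0.15 (SE, adjusted p = 0.0165), and with EGF it was 0.33 ± 0.16 (adjusted p = 0.234). Of 53 genes that act in Eph signalling (adaptors, Src family kinases and proteases among them), 50 were tested and 0 were called with EGF (1.73% of all genes) or with EGF+AngII (1.95% of all genes) after 6 h. With the FDR alone 6 of the 50 passed with EGF and 7 with EGF+AngII, beside 5.97% and 6.1% of all genes. All of these were higher, where of all genes past the FDR 670 were higher and 442 lower with EGF and 744 were higher and 392 lower with EGF+AngII. YES1, a Src family kinase, was higher by 0.52 ± 0.09 (log2, SE, adjusted p = 0.00133) with EGF, and GRB10, an adaptor, by 0.43 ± 0.08 (adjusted p = 0.00104). The median log2 fold change of this list was 0.05 with EGF and 0.06 with EGF+AngII, beside -0.01 and -0.01 for all genes tested. In EGF+AngII against AngII 2 of the 50 were called beside 1.87% of all genes, GRB10 (0.63 ± 0.08, adjusted p = 9.93e-06) and NGEF (0.63 ± 0.14, adjusted p = 0.00627). This pair was named after its values were seen.

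The genes most like EPHA2 across the 16 libraries after 6 h, by Pearson's r of log2(FPM + 1) among 13000 genes, were PTRF (0.967), TUBB6 (0.959), VCL (0.951), ADAMTS1 (0.951) and FAM83G (0.951). All 5 had positive log2 fold changes with EGF and EGF+AngII, up to 1.62 for PTRF, which codes for a coat protein of caveolae. Most like EPHA4 were LAMA3 (0.918), ZNF592 (0.909), C6orf89 (0.898), GJB7 (0.895) and ZNF33B (0.894), all with negative log2 fold changes in both conditions. The libraries share their conditions, and these coefficients are a description only.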

How the data were processed

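The authors deposited raw counts per gene for 16 libraries after 6 h and 15 after 24 h. Per the methods and the submitters' processing notes they clipped adaptors with cutadapt 1.8.1 (the notes also name Trim Galore), mapped reads with TopHat2 2.0.14 to hg19 (the series text names HISAT2) and counted with featureCounts 1.4.6 on Ensembl genes. The strand setting is not given in the sources used here. The labels name 32 libraries, and 1 EGF+AngII library after 24 h has no column and was not analysed here. Of the 24 h columns 8 carry the word filtered, which is not explained.

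edgeR 4.0.16 (R 4.3.3) gave TMM factors and quasi-likelihood F tests, fitted with all 4 conditions of a time point after filterByExpr. Genes were called at a Benjamini-Hochberg FDR below 0.05 over all genes, more than 1.5-fold, with over 5 FPM on average in controls (lower genes) or treated libraries (higher genes). The interaction and the difference between time points needed FDR and fold change only. The procedure was tested on simulated counts. Libraries of a condition differed by more than sampling noise in every pair (lowest chi-square per gene 2.07 at 6 h, 20.1 at 24 h). Lengths are from GENCODE on GRCh37, promoters from RefSeq on GRCh38.p14. Floors (3 counts) cover counting error only.

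The members and the lists were chosen with earlier results of these data known. By rule, the named genes were the 10 members, genes of the 2 lists called with EGF or EGF+AngII against control, EGR1, AGTR1 and EGFR. The rule also named the 5 genes most correlated with EPHA2 and with EPHA4 at a mean FPM above 5. YES1 and ARHGEF16 passed the FDR alone, were not called and were named outside this rule. GRB10 and NGEF, called only in EGF+AngII against AngII, were named outside it as well. Alternatives were DESeq2 1.42.0, its size factors, no filter on low counts, an FDR of 0.01, the FDR alone, protein-coding genes, a library series block, both together, and each library left out.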

Additional observations from a re-analysis of the deposited data

Results flagged for a closer look

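Among 70 groups of 4 libraries 3 held a library far from the others, where chance gives about 1 in 20 (3.5 groups). The distance was measured as the gap to the nearest library over the range of the group, above Dixon's 95% limit. EPHA4 with EGF after 6 h was lowest in replicate 2, at 25.3 FPM against 30.1 FPM in the nearest library (0.873). EFNA4 with AngII after 6 h was highest in replicate 1, at 4.18 FPM against 1.05 FPM (0.851). EFNB2 in control cells after 6 h was lowest in replicate 1, at 57.6 FPM against 68.6 FPM (0.855).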

How the results depend on the processing

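The number of the 10 genes called changed in few alternatives. With the FDR alone after 6 h it was 2 for EGF, 4 for EGF+AngII and 4 for EGF+AngII against AngII. For the EGF effect at 24 h minus 6 h it was 1 with protein-coding genes and a library series block (EPHA4, 0.69, adjusted p = 0.0450). For EGF+AngII at 24 h minus 6 h it was 2 under DESeq2, 1 when the library series was a block (EPHB2) and 2 with protein-coding genes and the block (EPHA2 and EPHB2). The cause was not tested. In the other comparisons and alternatives, each library left out included, the number called was that reported. The counts by the FDR alone and by libraries without overlap were not rerun in the alternatives. In some of these EPHA7 and EPHB2 with EGF and EPHA4 with EGF+AngII changed sides of the FDR after 6 h. EFNB1 with EGF after 6 h turned to -0.0030 with protein-coding genes only and to -0.00382 with these and the block. With a library left out the log2 fold change after 6 h ranged, with EGF, from -0.62 to 0.32 for EFNA4 and from -0.072 to 0.075 for EFNB1, and, with EGF+AngII, from -0.34 to 0.0045 for EFNA4, from -0.022 to 0.16 for EPHB4 and from -0.22 to 0.080 for EFNA1. EPHA2 with EGF stayed between 0.88 and 1.13 and with EGF+AngII between 1.19 and 1.45, and EPHB2 with EGF+AngII between 0.60 and 0.72. Of 140 effects computed for the 10 genes 52 changed sign in at least 1 alternative, the largest of them 0.60 for EFNA4 and 0.26 for the other genes. No paired analysis was possible because no replicate is numbered in the labels, and the numbers used here follow accession order and only name the libraries. Few counts and a wide spread between libraries limit EFNA4, and the wider spread limits the 24 h libraries. With the library series as a block EPHA7 with EGF after 6 h passed the FDR (adjusted p = 0.0427), and over all alternatives its adjusted p was 0.0226 to 0.288.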
